A study of Mus musculus with 14 samples.

Results

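Whole lungs of mouse embryos on embryonic day 18 (E18) were compared with those on embryonic day 16 (E16). The 4 arrays were those whose labels named the stages, 2 at E16 and 2 at E18, out of 14 arrays that covered 7 time points from E12 to Adult (postnatal day 30). All of the embryos were of the outbred strain ICR, none was treated, and the day a plug was seen counted as day 0. Every sample was labelled female. Lungs were dissected, washed and pooled before total RNA was extracted with Trizol, and the number of lungs in a pool and the independence of the 2 replicates are not stated, so that each p measures the spread between arrays, which may be technical. Levels are log2 values as deposited, 1 probe set stood for each gene, and a gene counted as measured where the higher of its E16 and E18 means was above 7. This held for 10878 of 18193 genes. A gene below 7 at 1 of the stages was therefore measured only where it was higher at the other. A gene rose or fell where limma, fitted over all 14 arrays, gave an adjusted p under 0.05, and a change was large where the difference was also above 1.2. Differences are E18 minus E16, and SE is their standard error.

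Between these stages the lung of the mouse leaves the pseudoglandular stage and passes through the canalicular into the saccular stage. Tubules of columnar epithelium widen into thin-walled sacs, the distal epithelium divides into flat alveolar type I cells, across which gas diffuses, and cuboidal alveolar type II cells, which store and secrete surfactant, and capillaries come to lie against the airspace. Glucocorticoids from the fetal adrenal gland speed this maturation, and epithelial sodium channels prepare the lung to clear its liquid at birth. In RNA of a whole organ, fewer cells of a type and less RNA per cell cannot be told apart.

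The surfactant protein gene Sftpc, the most specific product of distal lung epithelium, was at 14.34 and 14.30 at E16 and at 14.76 and 14.72 at E18, so that all 4 arrays carried lung RNA. The replicates of a stage lay close together, with a median gap of 0.098 at E16 and 0.094 at E18. The E16 replicates parted in a set of heart genes. Replicate 1 was more than 1.2 above replicate 2 for 41 measured genes, of which 27 belonged to a list of 28 measured heart muscle genes, whereas replicate 2 was more than 1.2 above replicate 1 for 2 genes, Hbb-y and Tmem14c. The summed level of the heart list was 15.27 and 13.02 in the E16 replicates and 13.52 and 13.75 in the E18 replicates, against a range from 12.18 to 15.27 over the 14 arrays. Markers of skeletal muscle were below 7 in all 4 arrays for 18 of 20 genes, as were 15 of 17 liver, 11 of 13 thymus and 13 of 16 oesophagus markers. The female label was not borne out by 3 of the 4 arrays. The Y-linked gene Eif2s3y was at 7.14 and 3.13 at E16 and at 7.65 and 8.10 at E18, and the Y-linked Kdm5d at 6.71 and 3.49 and at 7.09 and 7.39. E16 replicate 2 thus stood apart from the other 3 arrays, and Xist, the RNA of the inactive X chromosome, was high in all 4, at 12.78, 13.32, 12.66 and 11.97. Eif2s3y and Kdm5d rose in the test, by 2.74 (limma adjusted p = 0.0151) and 2.14 (adjusted p = 0.0166), as did the Y-linked Uty (adjusted p = 0.00343). The size rested on E16 replicate 2, without which Eif2s3y rose by 0.74, Kdm5d by 0.53 and Uty by 0.89. The call of each of these Y-linked genes depended on the fit or on the arrays used. With limma on the E16 and E18 arrays only, Eif2s3y and Kdm5d did not pass (adjusted p = 0.0688 and 0.0759), whereas Uty did (adjusted p = 0.00888). Without E16 replicate 2, in turn, Uty lost its call. The part of heart RNA and of the sex of the pooled embryos in the results that follow was not tested, beyond the values without an E16 array.

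**Figure D1:**
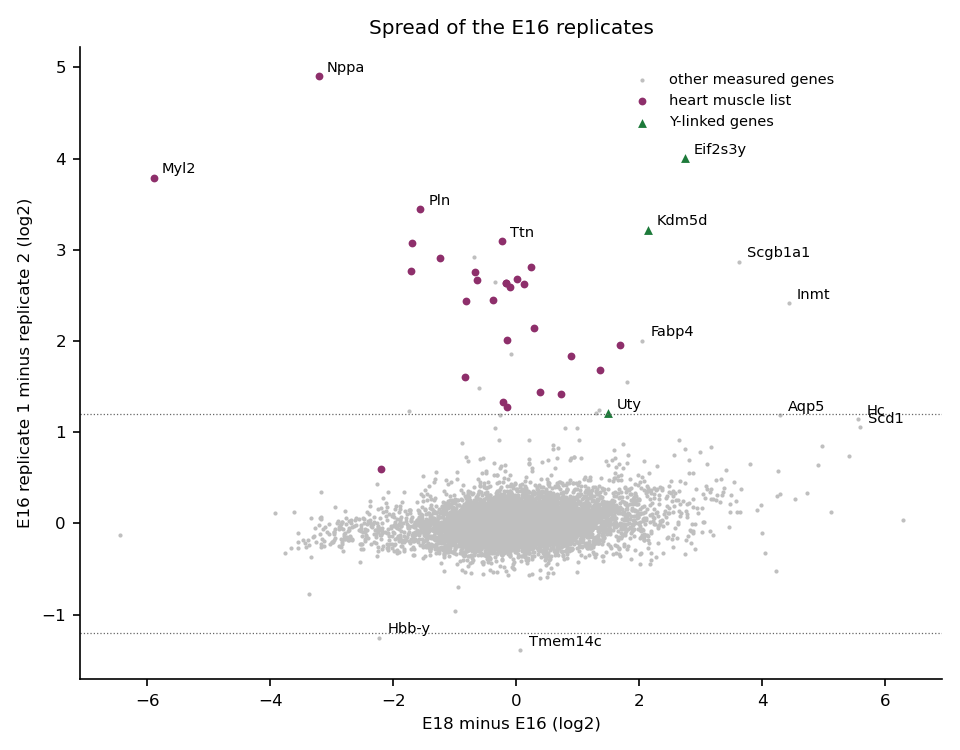
Each point is a measured gene, with E18 minus E16 on the horizontal axis and E16 replicate 1 minus replicate 2 on the vertical axis (log2). Dotted lines mark gaps of 1.2 and -1.2. Heart muscle genes and the Y-linked Eif2s3y, Kdm5d and Uty lie above the cloud, together with Scgb1a1, Inmt and Fabp4.

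From E16 to E18, 3652 genes rose (33.6% of measured genes) and 3436 fell (31.6%). Large rises numbered 748 (6.88%) and large falls 559 (5.14%), so that rises made up 57.2% of the large changes. The E16 and E18 arrays did not overlap for 9384 genes (86.3%), and the median difference of all measured genes was 0.02. The rises reached further than the falls: 55 genes rose and 39 fell by more than 3 log2 units, and 16 rose and 2 fell more than 16-fold. The largest rises were in genes of host defence, lipid and detoxifying metabolism and mature epithelium, and the largest falls were mostly in genes of DNA replication and chromosome segregation.

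**Figure D2:**
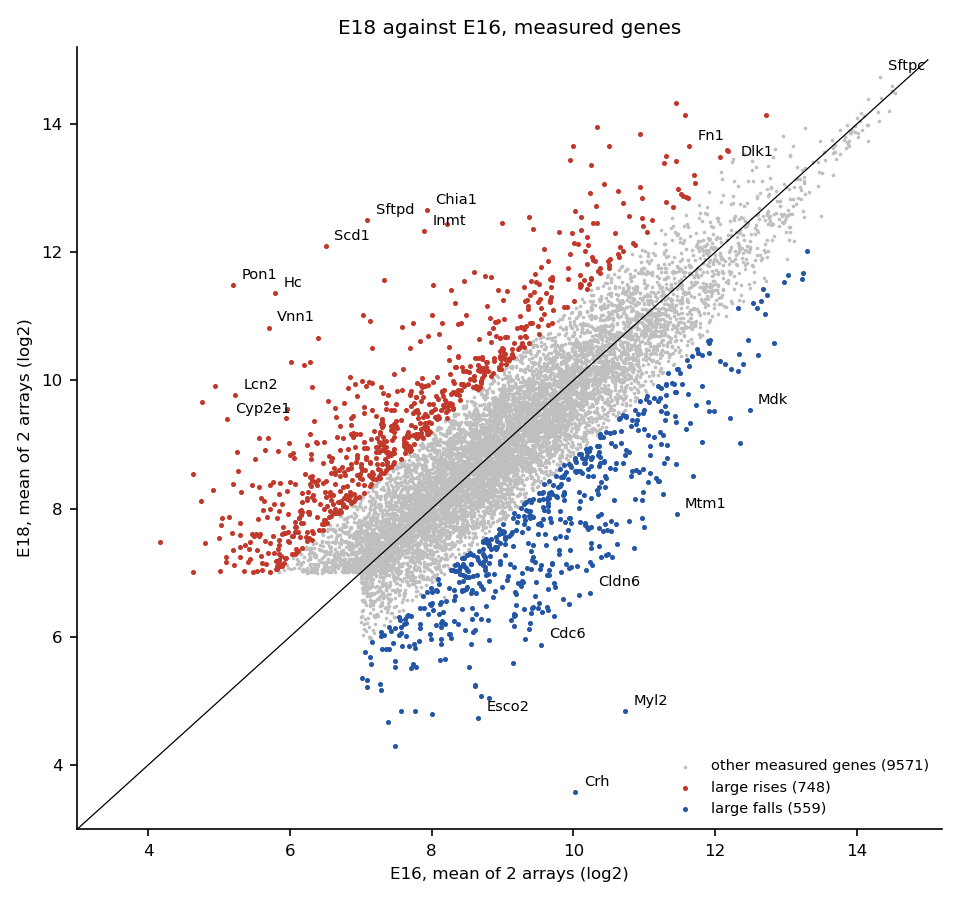
Mean log2 level of 2 arrays at E16 (horizontal) and E18 (vertical) for the 10878 measured genes, with the line of equality. Red points are the 748 large rises and blue points the 559 large falls. Crh and Myl2 lie farthest below the line, Pon1, Scd1 and Hc farthest above it, and Sftpc lies at the upper end near the line.

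Among the 15 largest rises, Pon1, which encodes a lactonase carried on high-density lipoprotein, was at 5.21 and 5.18 at E16 and at 11.59 and 11.37 at E18, a 78.0-fold rise of 6.29 (SE 0.25, adjusted p = 8.59e-10). Vnn1, a pantetheinase of the cell surface that releases cysteamine, was at 5.76 and 5.64 and then at 10.85 and 10.79. Its rise of 5.12 had the smallest error of the 15 (SE 0.09, adjusted p = 2.27e-12). Defence genes were frequent. Hc, the complement component C5, was at 6.37 and 5.23 at E16 and at 11.39 and 11.32 at E18 (difference 5.56, SE 0.28, adjusted p = 5.11e-09). Lcn2, a lipocalin that withholds iron from bacteria, was at 5.36 and 5.09 and then at 9.68 and 9.85 (difference 4.54, SE 0.14, adjusted p = 3.04e-10). The acidic mammalian chitinase Chia1 was at 8.10 and 7.77 and then at 12.63 and 12.69 (difference 4.72, SE 0.15, adjusted p = 3.14e-10). In each of these genes both E18 arrays lay far above both E16 arrays, which the choice of the largest rises with non-overlapping arrays ensured. Chil3, which macrophages secrete and which resembles chitinases, rose by 4.90, the resistin-like gene Retnla by 4.23 and Ear3, of the eosinophil-associated ribonucleases, by 4.26. Chil3 and Ear3 belong to families of near-identical copies, so their probe sets may also report neighbours. The lung collectin Sftpd, which binds sugars of microbes, was at 7.46 and 6.72 and then at 12.47 and 12.54 (difference 5.41).

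The other large rises were in lipid, detoxifying and transport genes. Scd1, the desaturase that makes monounsaturated fatty acids, was at 7.04 and 5.98 at E16 and at 12.16 and 12.04 at E18 (difference 5.59, SE 0.23, adjusted p = 1.2e-09). S100g, an intracellular calcium-binding protein known as a target of vitamin D, was at 5.37 and 4.52 and then at 9.96 and 9.86 (difference 4.96). Cyp2e1, a cytochrome P450 that oxidises small molecules, was at 5.28 and 4.96 and then at 9.59 and 9.21 (difference 4.28, SE 0.27, adjusted p = 3.81e-08). Its rise did not last: the mean at P2 was 6.06, a fall from E18 with an adjusted p of 3.2e-06. Inmt, a methyltransferase of lung fibroblasts, was at 9.10 and 6.69 at E16 and at 12.19 and 12.46 at E18. The E16 arrays differed by 2.42, and the difference of 4.43 (SE 0.50, adjusted p = 9.41e-06) was 5.64 without E16 replicate 1 and 3.22 without E16 replicate 2. Msln, mesothelin of the lung surface, was at 7.48 and 7.18 and then at 11.65 and 11.48 (difference 4.23, SE 0.16, adjusted p = 6.21e-10). The other mesothelial genes did not move as far, and Msln apart the highest difference of the 9 measured members was 1.07, in Krt19.

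The largest fall was in Crh, the hypothalamic hormone that drives the pituitary and adrenal axis, which was at 9.96 and 10.09 at E16 and at 3.68 and 3.47 at E18 (difference -6.45, SE 0.24, adjusted p = 6.1e-10). The E18 values lay near the lower end of the 4 arrays, whose 2.5th percentile was 3.25. Crh had risen before, from a mean of 8.07 at E14 by 1.96 (adjusted p = 0.00011), so that E16 was its highest stage. Myl2, the ventricular myosin light chain, was at 12.63 and 8.84 and then at 4.83 and 4.84 (difference -5.90, SE 0.75, adjusted p = 2.68e-05). Both E16 arrays were above both E18 arrays, as the choice of genes required, and the difference was -4.0 without E16 replicate 1 and -7.79 without replicate 2. Nppa, the atrial natriuretic peptide, was at 10.46 and 5.55 and then at 4.67 and 4.92, and its difference of -3.21 (adjusted p = 0.0235) rested on E16 replicate 1, without which it was -0.76 (adjusted p = 0.262).

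Among the 13 other largest falls, 9 genes serve DNA replication, repair or chromosome segregation. Esco2, which acetylates cohesin in S phase (difference -3.92), Dscc1, a subunit of an alternative clamp loader (-3.76), and Cdc6, which loads the replicative helicase (-3.67), fell most. Exo1, an exonuclease of mismatch repair, was at 8.76 and 8.63 at E16 and at 5.05 and 5.09 at E18 (difference -3.62, SE 0.13, adjusted p = 4.88e-10). Fignl1 of homologous recombination (-3.46), the spindle protein gene Psrc1 (-3.43), Dtl of the ubiquitin ligase that removes a licensing factor (-3.42), and the kinetochore genes Cenpk (-3.39) and Cenph (-3.36) followed. The other 4 genes have other roles. Cfi, the protease that inactivates complement, was at 9.04 and 9.24 and then at 5.54 and 5.64 (difference -3.55, SE 0.11, adjusted p = 2.67e-10), while Hc rose. Cldn6, a claudin of embryonic epithelia, was at 10.18 and 10.28 and then at 6.66 and 6.72 (difference -3.54, SE 0.14, adjusted p = 1.05e-09). Cym, the milk-clotting protease chymosin, was at 8.22 and 9.0 and then at 5.16 and 5.32 (difference -3.37). Mtm1, a phosphatase of inositol lipids, fell by 3.54 by its brightest probe set, and of its 2 other measured probe sets 1 had the same sign.

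**Figure D3:**
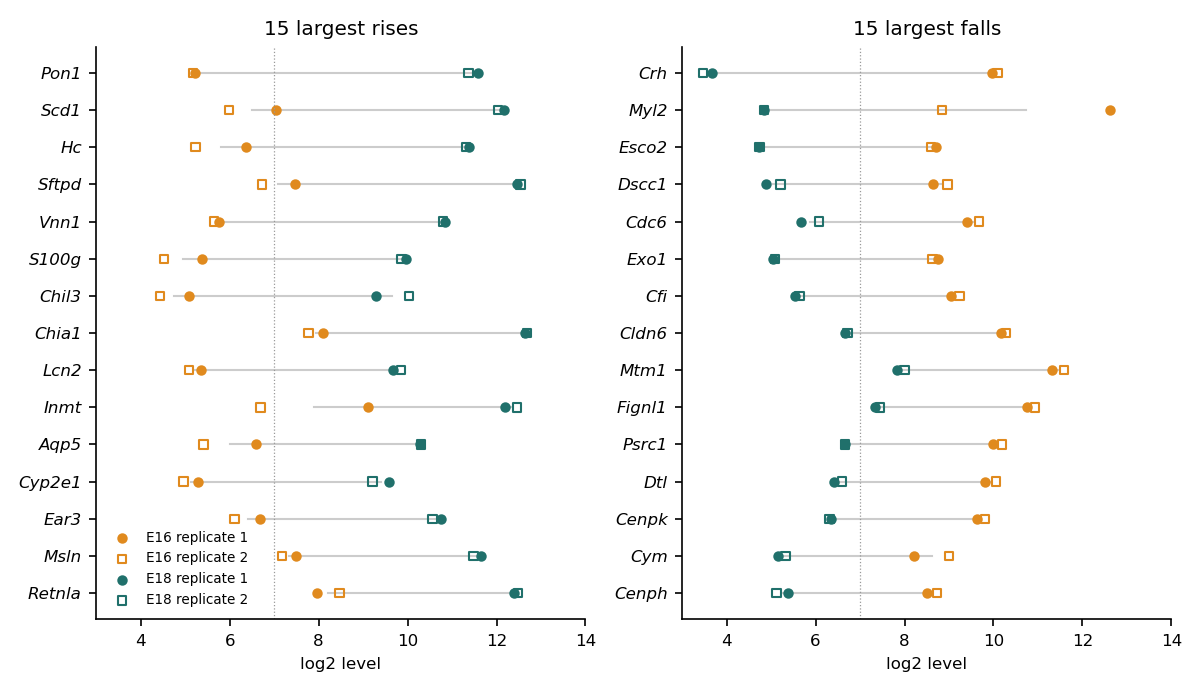
Log2 level in each of the 4 arrays for the 15 largest rises (left) and 15 largest falls (right). Circles are replicate 1 and squares replicate 2, orange for E16 and green for E18. Grey lines join the means, and the dotted line marks a level of 7. E16 and E18 symbols stand apart in all 30 genes because genes with overlapping arrays were left out by the choice, and only Myl2 and Inmt have E16 replicates more than 1.2 apart.

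In the distal epithelium, alveolar type II and type I genes rose together, and at P2 the median differences of their members from E16 were 1.97 and 1.87. Of 23 measured type II and surfactant genes 20 rose and 0 fell, with a median difference of 1.92. After Hc and Sftpd the largest rises were in Slc34a2, the phosphate transporter that recycles phosphate of surfactant, in Sftpa1, a surfactant collectin, and in Il33, an alarmin cytokine. Slc34a2 was at 10.18 and 9.81 at E16 and at 13.69 and 13.61 at E18 (difference 3.66, SE 0.13, adjusted p = 4.24e-10). Sftpa1 was at 10.10 and 9.79 and then at 13.45 and 13.41, and Il33 at 6.0 and 5.88 and then at 9.53 and 9.31. The 3 members that did not pass were Sftpc, near the upper end of the arrays (difference 0.42, adjusted p = 0.0538, and -0.44, adjusted p = 0.0237, over the mean of all its probe sets), the matrix protein gene Egfl6 (0.00) and Etv5, a transcription factor downstream of fibroblast growth factor (-0.17, but a fall of -0.63, adjusted p = 0.0347, by its probe set of largest standard deviation). Type II genes had been rising before: the median from E14 to E16 was 1.34, and the step from E16 to E18 was above the one before it for 9 members and below it for 7. For this list and those that follow, the shares over all measured genes were 17.9% above and 16.4% below. Slc34a2, for one, had risen by 3.79 from E14 to E16, and its 2 steps did not differ in the test (adjusted p = 0.75).

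Of 20 type I genes 18 rose, with a median of 1.89. Aqp5, a water channel of the alveolar surface, was at 6.60 and 5.41 at E16 and at 10.29 and 10.30 at E18 (difference 4.28, SE 0.25, adjusted p = 2.34e-08). Rtkn2, a rhotekin expressed in type I cells, was at 6.0 and 5.99 and then at 9.03 and 9.02 (difference 3.03, SE 0.09, adjusted p = 2.84e-10), although it had fallen by 0.33 from E14 to E16. The chloride channel protein gene Clic5 was at 8.84 and 8.66 and then at 11.61 and 11.63 (difference 2.87). Some type I genes turned upward only at this step, and others were already well on the way: the median from E14 to E16 was 0.86. Sema3e, a guidance cue, did not pass (0.26, adjusted p = 0.128), and Igfbp2, which binds insulin-like growth factors, fell against the rest of the list, from 9.97 and 10.13 to 6.98 and 7.21 (difference -2.95).

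In the airways, 13 of 15 measured genes of club and secretory cells rose, with a median of 2.74, the highest of the lists with at least 5 measured members. Scgb3a1, a secretoglobin, was at 7.13 and 6.93 at E16 and at 11.06 and 10.96 at E18 (difference 3.99, SE 0.21, adjusted p = 8.77e-09). Scgb1a1, the main secreted protein of club cells, was at 11.77 and 8.90 and then at 13.95 and 13.96. The E16 arrays differed by 2.87, and the rise of 3.62 (SE 0.64, adjusted p = 0.000429) was 5.06 without E16 replicate 1 and 2.19 without replicate 2. Aldh1a7, an aldehyde dehydrogenase, fell from 11.99 and 12.05 to 11.41 and 11.42 (difference -0.61), and the potassium channel gene Kcnk2 did not pass (0.32) except without E18 replicate 2 (0.55, adjusted p = 0.026). Ciliated cell genes moved less. Of 17 measured, 14 rose with a median of 0.84, led by the dynein light chain gene Dnali1, at 7.03 and 6.69 and then at 8.52 and 8.75 (difference 1.78, SE 0.16, adjusted p = 1.22e-06). Their step was below the one before it in 5 genes and above it in 1. Ccno, which drives the multiplication of centrioles early in the making of cilia, was at 7.58 and 7.50 and then at 7.36 and 7.32 (difference -0.20, adjusted p = 0.127) after a rise of 1.33 from E14 to E16, and its 2 steps differed (adjusted p = 5.5e-05).

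The making of fatty acids and that of sterols parted. Of 32 measured genes of fatty acid and phospholipid synthesis, which supply the lipid of surfactant, 23 rose and 2 fell, with a median of 0.61. Between E14 and E16, 12 members had risen and 7 had fallen, with a median of 0.02, and the step was above the one before it for 16 members and below it for 0. After Scd1 the largest rises were in Acss2, which activates acetate, from 7.42 and 7.30 to 9.72 and 9.57 (difference 2.28, SE 0.10, adjusted p = 2.42e-09), and in the transcription factor gene Cebpa, from 8.88 and 8.95 to 11.01 and 10.83 (difference 2.00). Elovl6, which elongates palmitate, went the other way, from 8.65 and 8.79 to 7.42 and 7.57 (difference -1.23, SE 0.13, adjusted p = 6.31e-06), and Lpgat1, an acyltransferase, fell by 0.29, a call lost without E16 replicate 2 (-0.20, adjusted p = 0.216) or E18 replicate 1 (-0.22, adjusted p = 0.199) and turned by another of its probe sets. Of 19 measured genes of sterol synthesis 11 fell and 2 rose, with a median of -0.46 after -0.43 from E14 to E16. Sqle, the squalene epoxidase, was at 9.50 and 9.72 and then at 8.46 and 8.60 (difference -1.08, SE 0.10, adjusted p = 1.69e-06). The C-4 sterol oxidase gene Msmo1 was at 8.36 and 8.40 and then at 7.58 and 7.55 (difference -0.81). Sc5d, a late desaturase of the pathway, and Srebf2, the transcription factor that controls it, rose by 0.55 and 0.52, while Hmgcs1, at its head, did not pass (-0.02, adjusted p = 0.925). The other measured probe set of Sc5d had the opposite sign.

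Genes for ion and water transport rose in 15 of 21 measured cases, with a median of 1.04. All 3 subunits of the epithelial sodium channel, which takes up sodium and with it liquid from the airspace, went up together. The alpha subunit gene Scnn1a was at 6.96 and 7.18 at E16 and at 9.94 and 9.89 at E18 (difference 2.85, SE 0.16, adjusted p = 1.11e-08). The gamma subunit gene Scnn1g was at 7.11 and 7.12 and then at 10.02 and 9.93 (difference 2.86, SE 0.13, adjusted p = 1.96e-09). Scnn1b, the beta subunit gene, was at 6.11 and 6.24 and then at 8.23 and 8.26 (difference 2.07, SE 0.18, adjusted p = 6.74e-07). For each subunit the step exceeded the one before it (adjusted p = 6.2e-05, 1.3e-05 and 0.0022 for Scnn1a, Scnn1g and Scnn1b). The capillary water channel gene Aqp1 rose by 2.51, and the chloride channel gene Cftr, which serves secretion of liquid, by 1.21. Fxyd6, a regulator of the sodium pump, fell by 1.64. Sgk1, a kinase that keeps sodium channels at the surface, did not pass, at 9.69 and 9.49 and then at 9.70 and 9.58, and was higher at P2, with a mean of 11.73.

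Of 25 measured genes of the glucocorticoid axis and its known targets 19 rose and 2, Crh and Cdkn1c, fell, with a median of 0.92. Hsd11b1, which turns inactive cortisone and 11-dehydrocorticosterone into active hormone, was at 10.15 and 9.89 at E16 and at 12.69 and 12.61 at E18 (difference 2.63, SE 0.11, adjusted p = 1.1e-09). The receptor gene Nr3c1 was at 10.86 and 10.73 and then at 11.17 and 11.16 (difference 0.37, SE 0.09, adjusted p = 0.00609), although 1 of its 4 other measured probe sets had the opposite sign and the call was lost without E16 replicate 2 (0.31, adjusted p = 0.0596). After Lcn2 the largest rises among targets were in the sulfotransferase gene Sult1a1 (3.16), the transcription factor gene Klf9 (2.33), the angiotensinogen gene Agt (2.12) and the transcription factor gene Zbtb16 (1.83). Klf9 was at 10.11 and 9.84 and then at 12.39 and 12.22, and Zbtb16 at 8.04 and 7.67 and then at 9.66 and 9.71. This list, too, had been rising, with a median of 0.82 from E14 to E16. The step was above the one before it for 6 of 25 members and below it for 4, against 17.9% and 16.4% of all measured genes. By P2 the median difference of the members from E16 was 0.29, against 0.92 at E18. Zbtb16 fell back to a mean of 6.30 (adjusted p = 8e-08 from E18 to P2) and the co-chaperone gene Fkbp5, which had risen by 0.90, to 8.40 (adjusted p = 1.4e-07). Cebpb, Anxa1, Ddit4 and Sgk1 were the 4 members that did not pass. The fall of Cdkn1c, an imprinted inhibitor of the cell cycle, was small (-0.33, adjusted p = 0.0188) and lost its call without E16 replicate 2 (-0.25, adjusted p = 0.144) and without either E18 replicate (-0.35, adjusted p = 0.0553, and -0.31, adjusted p = 0.0842).

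Cell division genes fell almost without exception. Of 44 measured genes of cell cycle and mitosis 43 fell and 0 rose, with a median of -2.67, and of 45 genes of DNA replication 45 fell, with a median of -2.08. Between E14 and E16, 8 cell cycle and 19 DNA replication genes had already fallen, against 1616 of all 10878 measured genes, with medians of -0.18 and -0.34, and the step from E16 to E18 was below the one before it for 43 and 38 members. Kif20a, a kinesin of the cleavage furrow, was at 10.48 and 10.62 at E16 and at 7.15 and 7.33 at E18 (difference -3.31, SE 0.15, adjusted p = 2.22e-09), and the spindle checkpoint kinase gene Bub1 at 10.93 and 11.07 and then at 7.60 and 7.83 (difference -3.28). The helicase subunit gene Mcm5 was at 11.63 and 11.75 and then at 8.38 and 8.62 (difference -3.19, SE 0.14, adjusted p = 1.66e-09). Even the least changed replication gene, Orc3 of the origin recognition complex, fell by 0.46. Foxm1, a transcription factor of mitotic genes, was the member that did not pass, at 7.76 and 7.72 and then at 7.61 and 7.52 (difference -0.18, adjusted p = 0.213), but it fell by its probe set of largest standard deviation (-1.38, adjusted p = 2.09e-06) and by the mean of its probe sets (-0.53, adjusted p = 0.000135). After birth the lists did not return to the E16 level: at P2 their medians were -2.21 and -1.48 relative to E16.

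Related lists fell by less. Of 23 measured genes of cohesin and condensin 18 fell, with a median of -0.85. Subunits of the condensin complexes, which compact mitotic chromosomes, fell far, as Ncapg did by 3.0, from 9.06 and 9.27 to 5.87 and 6.47. Smc1a of the cohesin ring, which also holds chromatin loops in cells at rest, fell by 0.60, and its loader gene Nipbl (-0.09) and the ring subunit gene Stag2 (0.09) did not pass. Of 25 measured nucleotide synthesis genes 21 fell, with a median of -1.26, led by the thymidine kinase gene Tk1, from 10.24 and 10.24 to 7.30 and 7.48 (difference -2.85, SE 0.12, adjusted p = 1.58e-09). Mthfd1, a folate enzyme, rose against the list by 0.85. Of 23 measured chromatin and DNA methylation genes 22 fell, with a median of -0.99. Uhrf1, which guides maintenance methylation to new DNA, was at 10.24 and 10.30 and then at 7.16 and 7.08 (difference -3.15), and the chromatin remodeller gene Hells fell by 3.13, while the de novo methyltransferase gene Dnmt3a did not pass (0.08, adjusted p = 0.588), 3 of its 4 other measured probe sets having the opposite sign. These 5 lists held 114 of the 559 large falls (20.4%).

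A list of cell cycle inhibitors and quiescence genes, which also holds cyclins, kinases and E2F factors, was mixed: of 36 measured 16 rose and 14 fell, with a median of 0.23. Cdkn2b, the inhibitor p15 of cyclin D kinases, was at 6.99 and 6.72 at E16 and at 10.06 and 10.05 at E18 (difference 3.20, SE 0.10, adjusted p = 3.14e-10). Klf4 and Cdkn1a, the inhibitor p21, rose by 1.97 and 1.96. The largest falls were in the cyclin gene Ccne2, from 9.67 and 9.63 to 6.93 and 6.99 (difference -2.70), the repressor gene E2f8 (-1.99) and the kinase gene Cdk4 (-1.84).

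Promoters of some of these genes are shown because CCAAT or an E2F-type word was frequent in some lists whose members fell, though not in those lists alone. From the RefSeq table (build GRCm38.p6), the 250 bases before each gene start were read in the direction of the gene and searched on both strands. The word CCAAT, bound by NF-Y, was in 76.9% of the 39 promoters of cell cycle and mitosis genes, in 50% of the 42 promoters of DNA replication genes, in 49.7% of the promoters of large falls and in 32.3% of those of large rises, against 33.8% of all 32851 promoters and 34.5% of those of measured genes. The E2F-type words TTTGGCGC or TTTCCCGC were in 7 of the 42 DNA replication promoters (16.7%), 6.55% of those of large falls and 0.794% of those of large rises. This compares with 1.3% of all promoters and 2.54% of those of measured genes. The share was 0% in cell cycle and mitosis genes and 16.7% in splicing and mRNA processing genes, of which 30 of 35 fell. It was 11.5% in antigen presentation and interferon genes, of which 23 of 26 rose, so these words did not mark falling lists alone. TTTGAA, the core of the element that cell cycle genes often carry, was in 30.8% of cell cycle promoters, against 16.0% of all and 10.5% of those of measured genes. The share of CCAAT did not follow the direction of a list: it was 83.3% in sterol synthesis, where 11 of 19 genes fell, 66.7% in circadian genes, of which 12 of 15 rose, 53.8% in antigen presentation and interferon genes, of which 23 of 26 rose, and 22.9% in nucleolar genes, of which 36 of 36 fell. No word contains another. A match is a description of letters and not of binding, and a list may hold several promoters of 1 gene. The genes printed were chosen after their values were seen, for matches to these words, and every match to a word named here stands in capitals (GCGGGAAA, GCGCCAAA and ATTGG are matches on the other strand). The cyclin gene Ccnb2, which was at 11.30 and 11.25 at E16 and at 8.66 and 8.76 at E18, holds CCAAT at 87, 54 and 21 bases before the start and TTTGAA at 167 (chr9:70421555-70421804, minus strand). Cdk1, its kinase partner, which was at 11.58 and 11.58 and then at 9.20 and 9.29, holds CCAAT at 208, 80 and 48 bases and TTTGAA at 71 and 15 (chr10:69352913-69353162, minus strand). Cdc6 (chr11:98907901-98908150, plus strand) and Mcm5 (chr8:75109259-75109508, plus strand) hold an E2F-type word at 138 and 149 bases, Mcm5 also holds CCAAT at 77 and 22 bases, and Msmo1 (chr8:64733579-64733828, minus strand) holds CCAAT at 160, 96 and 55 bases.
Ccnb2: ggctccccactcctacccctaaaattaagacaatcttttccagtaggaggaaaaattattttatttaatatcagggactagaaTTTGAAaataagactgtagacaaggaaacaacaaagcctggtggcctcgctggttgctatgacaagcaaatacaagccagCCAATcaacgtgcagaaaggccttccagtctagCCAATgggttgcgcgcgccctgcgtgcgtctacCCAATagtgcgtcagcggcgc
Cdk1: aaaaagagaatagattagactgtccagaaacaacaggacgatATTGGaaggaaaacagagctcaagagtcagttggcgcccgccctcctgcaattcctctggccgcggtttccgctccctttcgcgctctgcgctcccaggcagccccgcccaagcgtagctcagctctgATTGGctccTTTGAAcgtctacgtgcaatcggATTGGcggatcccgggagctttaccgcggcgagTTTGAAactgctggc
Cdc6: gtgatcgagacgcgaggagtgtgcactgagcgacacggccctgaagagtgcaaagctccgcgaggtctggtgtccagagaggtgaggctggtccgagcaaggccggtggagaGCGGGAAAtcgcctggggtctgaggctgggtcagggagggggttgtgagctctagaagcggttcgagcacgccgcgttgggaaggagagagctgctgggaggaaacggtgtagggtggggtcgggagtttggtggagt
Mcm5: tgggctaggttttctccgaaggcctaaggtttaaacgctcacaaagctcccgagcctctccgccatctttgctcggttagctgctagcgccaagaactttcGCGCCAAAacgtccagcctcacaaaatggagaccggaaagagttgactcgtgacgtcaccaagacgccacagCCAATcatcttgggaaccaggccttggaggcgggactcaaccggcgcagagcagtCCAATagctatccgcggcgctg
Msmo1: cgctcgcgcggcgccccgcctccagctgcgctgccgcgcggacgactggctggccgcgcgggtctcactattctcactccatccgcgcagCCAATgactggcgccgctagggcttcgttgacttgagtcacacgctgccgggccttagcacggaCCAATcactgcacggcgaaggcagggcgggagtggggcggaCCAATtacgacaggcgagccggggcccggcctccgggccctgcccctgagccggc

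Genes for making RNA and ribosomes fell as well, by smaller steps. Of 36 measured genes of nucleolar ribosome biogenesis 36 fell, with a median of -0.97. Nop56, a core protein of the small nucleolar particles that methylate ribosomal RNA, was at 10.27 and 10.50 at E16 and at 8.35 and 8.48 at E18 (difference -1.97, SE 0.10, adjusted p = 3.95e-09). These genes, unlike those of the cell cycle, had been falling before, 31 of 36 from E14 to E16 with a median of -0.53, and the step was below the one before it for 15. Of 35 measured splicing and mRNA processing genes 30 fell, with a median of -0.74, led by the spliceosomal Sm protein gene Snrpf (-1.65), and 5 did not pass. Sf3b1 was among these 5 (-0.16), although it fell by its probe set of largest standard deviation (-0.85, adjusted p = 2.12e-05) and by the mean of its probe sets (-0.49, adjusted p = 4.5e-05). Oncofetal and imprinted growth genes were mixed: of 26 measured 14 fell and 5 rose, with a median of -0.38. The heparin-binding growth factor midkine, Mdk, was at 12.58 and 12.39 and then at 9.46 and 9.61 (difference -2.95, SE 0.19, adjusted p = 6.25e-08), and its relative pleiotrophin, Ptn, fell by 2.09. Against these, the imprinted genes of 1 cluster rose. Meg3 was at 12.22 and 12.11 and then at 13.52 and 13.67, Dlk1 at 12.17 and 12.32 and then at 13.58 and 13.22 (difference 1.16, SE 0.16, adjusted p = 7.02e-05), and Rian rose by 0.91. Dlk1 fell to a mean of 8.82 by P2 (adjusted p = 6e-09).

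The vessels and matrix of the lung changed with the epithelium. Of 41 measured endothelial and capillary genes 31 rose and 3 fell, with a median of 0.81. Car4, a carbonic anhydrase anchored on lung capillaries, was at 5.51 and 5.02 at E16 and at 8.43 and 8.75 at E18 (difference 3.33, SE 0.19, adjusted p = 1.45e-08). Vwf, the clotting factor stored by endothelium, was at 7.65 and 6.99 and then at 9.17 and 9.06 (difference 1.80), and Aplnr, the apelin receptor, fell by 0.62. Of 21 measured collagen chains 10 rose and 2 fell, with a median of 0.29. The largest rises were in chains of type IV, of basement membranes: Col4a3 was at 6.44 and 6.19 and then at 9.90 and 9.88 (difference 3.58, SE 0.17, adjusted p = 3.3e-09), Col4a4 rose by 2.77, Col4a2 by 2.07, Col4a1 by 1.42 and Col4a5 by 0.46, while Col4a6 did not pass (-0.09) or, by its probe set of largest standard deviation, fell (-0.37, adjusted p = 0.00985). The other 5 that rose were Col6a3 (1.23), Col13a1 (1.14), Col6a1 (1.11), Col6a2 (0.78) and Col14a1 (0.50). The fibrillar chains Col1a1, Col1a2, Col3a1, Col5a1 and Col5a2 were among the 9 of 21 that did not pass, with differences from -0.18 (Col5a2) to 0.29 (Col1a1), but other measured probe sets of Col1a1, Col1a2, Col3a1 and Col5a1 had the opposite sign. The 2 chains that fell were Col9a1, of cartilage, by 1.80 and Col18a1, of basement membranes, by 0.66.

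Of 29 measured elastic fibre and matrix genes 16 rose and 8 fell, with a median of 0.45. Fn1, fibronectin, was at 11.62 and 11.64 at E16 and at 13.68 and 13.62 at E18 (difference 2.02, SE 0.09, adjusted p = 2.79e-09), and Fbln5, which assembles elastic fibres, rose by 1.83 beside elastin, Eln (2.19). Vcan, the proteoglycan versican, fell by 3.15, and Fbn2, the fibrillin of fetal tissue, was at 11.35 and 11.28 and then at 8.93 and 9.07 (difference -2.32). Of 23 measured smooth muscle and myofibroblast genes 9 rose (39.1%) and 8 fell (34.8%), near the shares of all measured genes. Contractile genes were among those that fell: Cnn1, calponin, was at 8.80 and 8.64 and then at 6.77 and 6.72 (difference -1.97, SE 0.18, adjusted p = 1.36e-06), Actg2 fell by 1.54 and Acta2, smooth muscle actin, by 1.11. At P2 the mean of Cnn1 was back at 9.04 (adjusted p = 2.8e-06 from E18 to P2). The amine oxidase gene Aoc3 rose by 0.93. Of 20 measured genes of lipofibroblasts, the fat-storing cells beside type II cells, 15 rose and 2 fell, with a median of 1.24. Cd36, which takes up fatty acids, was at 9.10 and 8.76 and then at 11.47 and 11.35 (difference 2.48), while Pth1r, the receptor through which type II cells signal to them, fell by 1.28. Fabp4, at 7.92 and 5.91 and then at 9.19 and 8.73, rose by 2.04, by 3.04 without E16 replicate 1 and by 1.04 without replicate 2.

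Most measured genes of the defence lists rose. Members below 7 at E16, such as Oasl2 and Usp18, counted as measured only through their E18 level and so could not count as falls. Of 24 lymphocyte genes on the array only 5 were measured, of which 3 rose and 0 fell. Of 8 measured genes of neutrophils and their granules 7 rose, with a median of 2.12. S100a9, a subunit of the antimicrobial calprotectin, was at 7.40 and 6.62 at E16 and at 9.79 and 10.20 at E18 (difference 2.98, SE 0.23, adjusted p = 2.67e-07). Lcn2 and Hp, haptoglobin, of this list are also known from airway epithelium, and 11 of the 19 genes of the list on the array were not measured. Of 20 macrophage genes 14 rose and 0 fell, with a median of 0.70. After Chil3 the largest rise was in lysozyme, Lyz2, which type II cells also make, from 10.91 and 10.08 to 13.69 and 13.63 (difference 3.17). The complement genes C1qa, C1qb and C1qc, made by tissue macrophages, did not pass, with differences of -0.13, -0.08 and 0.00. Of 26 measured genes of antigen presentation and interferon response 23 rose and 0 fell, with a median of 1.08. The interferon-induced Oasl2 was at 5.11 and 4.72 and then at 8.39 and 8.19 (difference 3.37, SE 0.15, adjusted p = 2.69e-09), and Usp18, which restrains interferon signalling, at 6.11 and 6.03 and then at 8.29 and 8.46. The class I genes H2-D1 and H2-K1, whose sequences are alike enough to share probes, rose by 2.24 and 2.22, while the class II gene H2-Aa did not pass, at 7.27 and 6.35 and then at 6.83 and 7.20. Of 17 measured complement and coagulation genes 14 rose and 2 fell, with a median of 0.86. Among those that rose were the initiating proteases C1s1 (2.01) and C1ra (2.01). The list does not hold Cfi, the complement protease that fell by 3.55.

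The word TTGCNNAA, to which C/EBP factors bind, is shown in 3 promoters of genes that rose far, and of the C/EBP genes Cebpa and Cebpd rose by 2.00 and 1.72 while Cebpb did not pass (0.07, adjusted p = 0.654). It was in 5 of the 7 promoters of neutrophil and granule genes (71.4%) and in 26.5% of the 34 promoters of xenobiotic metabolism genes, against 9.56% of all promoters and 7.44% of those of measured genes. Over the large rises the share was 9.13%, near that of all promoters. The share did not follow the direction of a list. It was 17.9% in fatty acid oxidation and respiration, where 16 of 33 genes fell, and 14.3% in splicing and mRNA processing, where 30 of 35 fell. It was 3.85% in antigen presentation and interferon genes, of which 23 of 26 rose, and 0% in cell cycle and mitosis genes, of which 43 of 44 fell. A part of C/EBP factors in the rises was not tested. In genes of the glucocorticoid axis and its targets the half-site TGTTCT was in 16.7% of 30 promoters. This compares with 16.1% of all promoters, 10.5% of those of measured genes and 13% of those of large rises. Lcn2 (chr2:32387740-32387989, minus strand) holds TTGCNNAA at 216 bases before the start, S100a9 (chr3:90695722-90695971, minus strand) at 236 and Pon1 (chr6:5193947-5194196, minus strand) at 73, in capitals, and these genes too were chosen after their values were seen.
Lcn2: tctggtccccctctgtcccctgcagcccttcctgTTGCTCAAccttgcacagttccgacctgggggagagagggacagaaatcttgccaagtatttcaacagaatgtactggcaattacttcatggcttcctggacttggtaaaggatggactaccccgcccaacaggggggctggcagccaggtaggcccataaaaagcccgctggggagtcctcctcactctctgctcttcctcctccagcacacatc
S100a9: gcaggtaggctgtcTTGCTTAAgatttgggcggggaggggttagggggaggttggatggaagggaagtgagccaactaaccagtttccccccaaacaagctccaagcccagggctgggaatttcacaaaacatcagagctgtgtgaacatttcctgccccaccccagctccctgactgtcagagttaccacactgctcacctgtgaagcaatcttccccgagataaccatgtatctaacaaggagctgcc
Pon1: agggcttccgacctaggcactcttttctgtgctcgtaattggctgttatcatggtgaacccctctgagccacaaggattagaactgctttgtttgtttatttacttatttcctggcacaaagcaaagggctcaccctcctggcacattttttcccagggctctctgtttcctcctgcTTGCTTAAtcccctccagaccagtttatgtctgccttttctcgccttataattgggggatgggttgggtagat

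In metabolism, 25 of 33 measured xenobiotic genes rose and 5 fell, with a median of 1.12. After Pon1, Inmt and Cyp2e1 the largest rise was in the aldehyde oxidase gene Aox3, from 6.02 and 5.90 to 9.62 and 9.48 (difference 3.59, SE 0.17, adjusted p = 3.61e-09). Of 23 measured antioxidant enzyme genes 12 fell and 5 rose, with a median of -0.32. Gpx3, a secreted glutathione peroxidase, was the exception by size, from 10.60 and 10.25 to 13.08 and 13.05 (difference 2.64, SE 0.11, adjusted p = 1.09e-09), whereas the peroxiredoxin gene Prdx4 fell by 1.49 and the thioredoxin reductase gene Txnrd1 by 1.39. Glycolysis and hypoxia genes rose in 17 of 30 cases, and their step was above the one before it for 16 and below it for 0. The largest rises were in adrenomedullin, Adm, which low oxygen induces, from 6.77 and 6.66 to 8.93 and 8.91 (difference 2.21, SE 0.12, adjusted p = 1.41e-08), the stress response gene Ndrg1 (2.15) and the oxygen-regulated transcription factor gene Epas1 (2.13). The 4 that fell, Tpi1, Pkm, Pgk1 and Pgam1, are enzymes of glycolysis itself, and Pgam1 (-0.39, adjusted p = 0.0132) lost its call without E16 replicate 2 (-0.36, adjusted p = 0.0701) or E18 replicate 1 (-0.28, adjusted p = 0.133). At P2 the list median was -0.46 relative to E16. Fatty acid oxidation and respiration fell in 16 of 33 genes and rose in 2, Acadm (0.62) and Cpt1a (0.47), which burn fatty acids, and cytochrome c, Cycs, fell the most (-1.14). The call of Cpt1a was lost without E16 replicate 2 (0.38, adjusted p = 0.139) or E18 replicate 2 (0.40, adjusted p = 0.121). Of 15 measured circadian genes 12 rose and 0 fell, with a median of 0.99. Per3 was at 7.01 and 7.15 and then at 8.74 and 8.86 (difference 1.72, SE 0.11, adjusted p = 4.41e-08), and both Per1 and Per2, its relatives, and Arntl, their activator, rose (1.12, 1.11 and 0.70). The time of day of the dissections was not given in the sources used here.

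The lists of junctions and of patterning changed in part. Of 27 measured claudin and junction genes 16 rose and 5 fell, with a median of 0.48. The plakin gene Ppl, of desmosomes, was at 7.46 and 7.48 at E16 and at 8.94 and 8.91 at E18 (difference 1.46), while Epcam, an adhesion protein of epithelial progenitors, fell by 1.13. Of 58 measured branching and patterning genes 21 rose, 14 fell and 23 did not pass, with a median of 0.14, near the shares of all measured genes. Wnt11 was at 7.92 and 7.76 and then at 6.44 and 6.90 (difference -1.17), the forkhead gene Foxp2 fell by 1.11 and the hedgehog effector gene Gli1 by 1.09. Spry1, which damps fibroblast growth factor signals, was at 8.94 and 9.12 and then at 10.42 and 10.39 (difference 1.38). Regulators of early lung fate were among those that did not pass: Nkx2-1 was at 7.85 and 8.02 and then at 8.66 and 8.13 (adjusted p = 0.0955), Sox9 at 7.66 and 8.01 and then at 7.92 and 7.29 (adjusted p = 0.399), and Sox2 at 7.09 and 7.50 and then at 7.30 and 6.82 (adjusted p = 0.471). The arrays of the stages overlapped for Sox9 and Sox2, and the result turned on single arrays: without E18 replicate 1 Sox9 passed (-0.54, adjusted p = 0.0479), and without E18 replicate 2 Nkx2-1 passed (0.72, adjusted p = 0.0248). Heart muscle genes fell in 5 and rose in 2 of 28 cases, counts that turned on the E16 array used: 17 rose and 2 fell without E16 replicate 1, and 1 rose and 25 fell without E16 replicate 2. Of 7 measured red cell genes 3 fell, among them the embryonic globin gene Hbb-y, from 10.19 and 11.45 to 8.65 and 8.53 (difference -2.23).

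**Figure D4:**
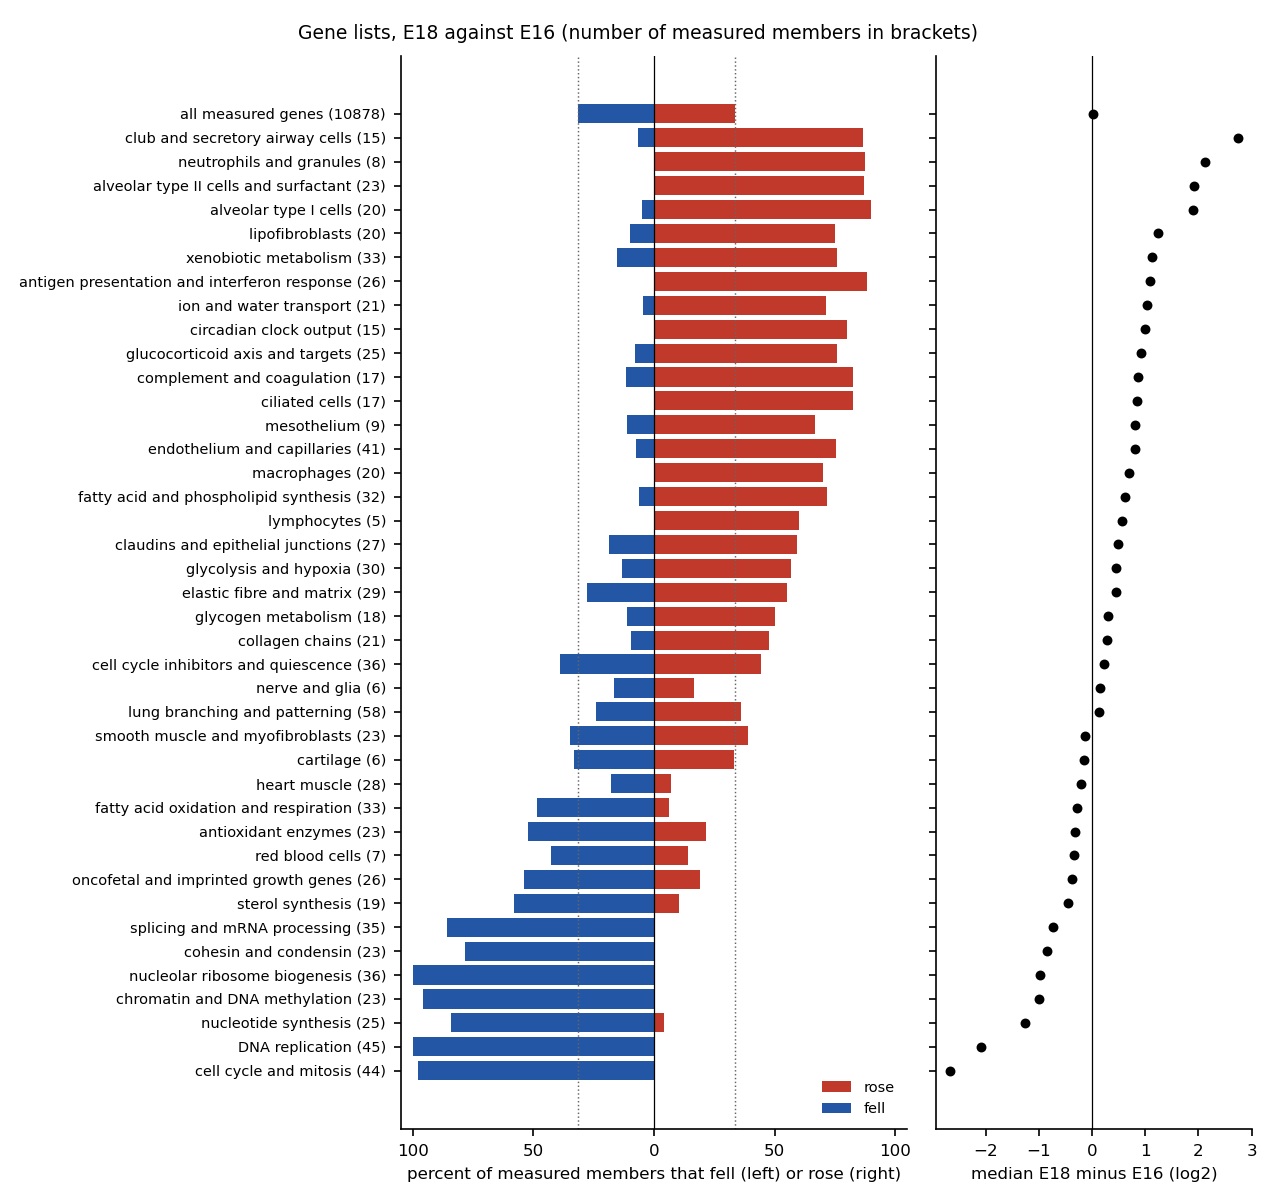
Share of the measured members of each gene list that fell (blue, left) or rose (red, right), and the median difference E18 minus E16 (log2) beside it. Dotted lines mark the shares over all 10878 measured genes, 33.6% up and 31.6% down. Club cell, neutrophil and alveolar lists stand at the top, and DNA replication and cell cycle lists at the bottom.

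The step from E16 to E18 was set against the step from E14 to E16 in the same limma fit. The 2 steps share the E16 arrays, which enter them with opposite signs, so that an E16 array that stands apart moves both. Over all measured genes the later step was above the earlier one for 1945 (17.9%) and below it for 1789 (16.4%). With 1 array at E16 these counts were 1073 and 989 without E16 replicate 1 and 1151 and 1095 without E16 replicate 2. Of the 748 large rises 428 had already risen from E14 to E16, against 1539 of all 10878 measured genes, and 559 had a later step above the earlier one. Of the 559 large falls 234 had fallen before, against 1616 of all measured genes, and 527 had a later step below the earlier one. Large changes were chosen by the same E18 minus E16 difference that forms the later step. Their counts of later steps above or below the earlier one were therefore largely set by the choice. Crh turned from a rise of 1.96 to a fall of 6.45 (adjusted p of the difference 3e-07), whereas Sftpb, a surfactant protein that spreads the film, rose by 2.73 and then by 2.08, and its steps did not differ in the test (adjusted p = 0.2). After birth 327 of the 748 large rises had fallen again at P2. These genes were chosen for high E18 values, which also enter the fall to P2, and the share over all genes was not counted. Gnmt, a methyltransferase of glycine, went from 6.03 and 6.36 at E16 to 10.17 and 10.31 at E18 and to a mean of 7.03 at P2 (adjusted p = 3.7e-08 from E18 to P2), and Nedd4l, a ubiquitin ligase that removes sodium channels from the surface, from 9.58 and 9.46 to 11.49 and 11.52 and to a mean of 9.66 (adjusted p = 3.2e-08).

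**Figure D5:**
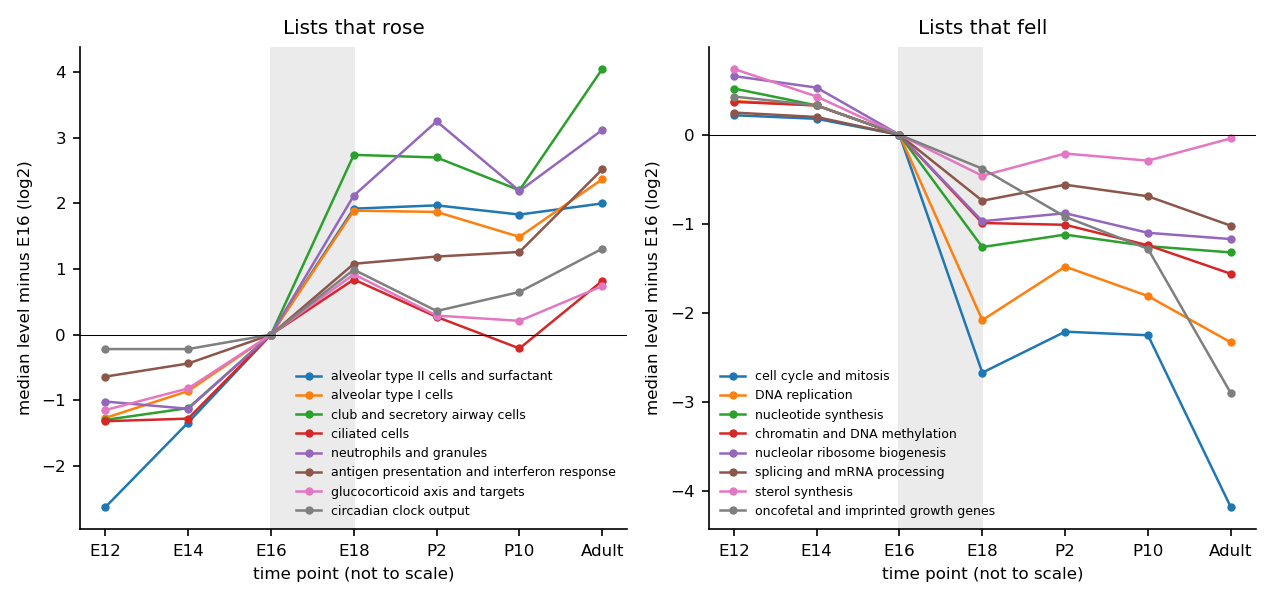
Median over the measured members of each list of the difference from the member's own E16 mean (log2) at 7 time points. The step from E16 to E18 is shaded. Type I, type II and club cell lists (left) stay near their E18 level at P2, while ciliated, glucocorticoid and circadian lists are lower there. Cell cycle and DNA replication lists (right) are nearly level up to E16 and drop to -2.67 and -2.08 at E18.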

How the data were processed

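Total RNA of whole lungs was hybridised to Affymetrix whole-genome mouse arrays, 2 for each of 7 time points. The authors deposited log2 values per probe set. The submitters' processing notes name Partek 6.4 and GCRMA, whereas the methods name RMA, so the background correction is unsure. Medians of the arrays lay between 6.55 and 6.62, and the number of arrays limits the precision. The 64 control probe sets were left out, which left 45037. Symbols came from the platform annotation: 34945 probe sets had 1 symbol, 932 several and 9160 none, and lookup of 34741 by Entrez identifier in the RefSeq table (GRCm38.p6) renamed 0. The probe set of highest mean over the 14 arrays stood for a gene.

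The deposited log2 values were fitted with limma 3.58.1 in R 4.3.3, with a mean for each time point over all 14 arrays (7 residual and 6.04 prior degrees of freedom). The Benjamini-Hochberg adjustment ran over all probe sets. The contrasts were E18 minus E16 and that step minus the E14 to E16 step. Measured genes had an E16 or E18 mean above 7, and large changes a difference above 1.2. In simulated data for E18 minus E16 over 45037 probe sets, 198 of 200 probe sets raised or lowered by 1.5 and 200 of 200 raised or lowered by 3.0 were found. Of 44637 others, 12 were called. The simulated noise was normal and of 1 size per probe set at every stage, and far fewer probe sets changed than in the data. The wider spread of heart genes at E16 was thus not covered.

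Named genes were the 15 largest rises and 15 largest falls with non-overlapping arrays, skipping clones and unnamed loci, and, from 44 gene lists, members with the largest change, those against the rest of their list or that did not pass, and those with E16 replicates over 1.2 apart. Ccnb2, Cdk1, Sftpb, Gnmt, Krt19, Xist and the Y-linked genes were named outside this rule, after their values were seen, as were other list members given for comparison. The genes and lists were chosen with earlier results of these data known. Lists were counted, not tested. Alternatives were another fit, scaling, probe set or filter, the replicate block, and each replicate left out.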

Additional observations from a re-analysis of the deposited data

How the results depend on the processing

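The counts of genes that rose or fell and of large rises and falls kept within 1.5 times of their values under each setting tried except a stricter size limit: with a difference above 2 in place of 1.2, large rises numbered 223 and large falls 192. Leaving out 1 replicate gave 3085 to 3352 genes that rose, 2938 to 3078 that fell, 707 to 790 large rises, 545 to 594 large falls, 349 to 378 listed genes that rose and 332 to 352 that fell. The comparison of steps depended most on the arrays: with 1 replicate left out, 1073 to 1858 genes had a step above the one before and 989 to 1671 a step below. With the arrays centred on their medians, 3326 genes rose and 3735 fell, so that rises went from the larger to the smaller share, and with the mean of all probe sets of a gene 3155 rose and 3285 fell. Deviations of same-numbered E16 and E18 replicates did not go together (correlation -0.031), and over the pairs of stages the correlation ran from -0.292 to 0.138. The labels do not say whether same-numbered samples share more than a number, and these correlations cannot settle it. A replicate block gave 3583 genes that rose, 3367 that fell, 748 large rises and 559 large falls. Of 187 named genes 157 had passed the test, and 13 of these lost the call under at least 1 setting. Direction turned with the probe set. With the probe set of largest standard deviation, the difference was -0.82 for Col1a2, -0.62 for Col3a1, -1.0 for Dnmt3a and 0.31 for Lpgat1, while Mthfd1 (0.14, limma adjusted p = 0.601) and Per3 (0.63, limma adjusted p = 0.0871) lost the call. With the mean of all probe sets it was -0.3 for Col3a1, 0.34 for Col5a1, -0.28 for Dnmt3a and -0.44 for Sftpc. The cause was not tested. The E18 values of Crh lay near the 2.5th percentile of 3.25, where the arrays give little range below.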
